A study of Drosophila melanogaster with 10 samples.

Results

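In RNA-seq of the adult Drosophila ventral nerve cord (VNC), 31 genes for voltage-gated and potassium ion channels and their accessory subunits were followed. The members were named genes of the sodium, potassium, calcium and HCN channel families and the NALCN leak channel, and they were matched to rows of the count table by FlyBase ID or by gene name, older synonyms included. All 31 were found among the 14352 genes of the table. Of these, 30 were tested among 9365 genes, and sand fell under the filter of a mean of 2 deposited TPM in at least 1 group.

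All flies were w1118 adults labelled as 3 to 10 days old, reared at 25 °C on standard food, with about 30 males and 30 females per sample. The 5 injured libraries came from animals in which the 6 legs, the 2 wings and the head had been cut off, and which then lay ventral side up on 2% agar at 98% humidity for 5 hr. The 5 uninjured libraries came from intact animals kept without food on 2% agar in vials for 5 hr. By the labels, each library is a pool of 60 to 80 dissected cords, so p-values measure the spread between pools. The cut itself, the loss of the head and the different housing cannot be told apart. The RNA is from the whole cord, where fewer cells of a type and less RNA per cell cannot be told apart.

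Voltage-gated channels open when the membrane voltage changes: sodium channels carry the rising phase of the action potential, calcium channels couple voltage to transmitter release, and potassium channels restore the resting voltage. Inwardly rectifying and leak potassium channels are open near rest and set the resting potential and the handling of potassium, in neurons and also in glia, which take up potassium that neurons release. Accessory subunits control how many channels reach the membrane and how they gate.

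Total counts ranged from 5146470 to 6640492 per library. Libraries are numbered as the columns of the count table are, since those numbers do not match the replicate names of the labels. Levels are CPM, the count as a part of the library's total over tested genes, scaled by TMM factors of 0.971 to 1.04, and comparisons between genes use the deposited TPM, which is per length. A gene is called at an adjusted p under 0.01 in edgeR's quasi-likelihood test over all 9365 genes. The 14 neuron markers had summed levels of 23196 to 30994 CPM in uninjured and 23712 to 30035 CPM in injured libraries, and 0 of them were called (2 at an unadjusted p under 0.05 in edgeR, and 0 called with DESeq2 or limma-voom). The 10 glia markers summed to 6758 to 9664 and 5262 to 8368 CPM, with 1 higher and 2 lower. The 15 muscle markers summed to 2575 to 4262 and 1261 to 9667 CPM, with 0 called (2 at an unadjusted p under 0.05 in edgeR, and 0 called with DESeq2 or limma-voom). Of these 15, 11 had a positive log2 fold change, with a median of 0.78 and a median SE of 0.48. The 0 calls therefore do not show equal muscle RNA in the groups. No marker of these lists had a count of 0 in any library.

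After injury, the potassium channel genes Irk2 and Ork1 fell to under 50% of their uninjured level, the related Irk1 rose 2.56-fold, and SK and the sodium channel subunit gene Teh1 rose by less than 1.5-fold. The other 25 tested members were not called. Of the 30 tested members, 3 were called higher, or 10.0%, where 7.30% of all tested genes were, and 2 lower, or 6.67%, where 6.62% of all tested genes were. At least 2-fold changes among the calls were found for 3 members (Irk1, Irk2 and Ork1), or 10.0%, beside 4.36% of all tested genes. The groups did not overlap in CPM for the same 3 members, and for 16.5% of all tested genes.

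**Figure D1:**
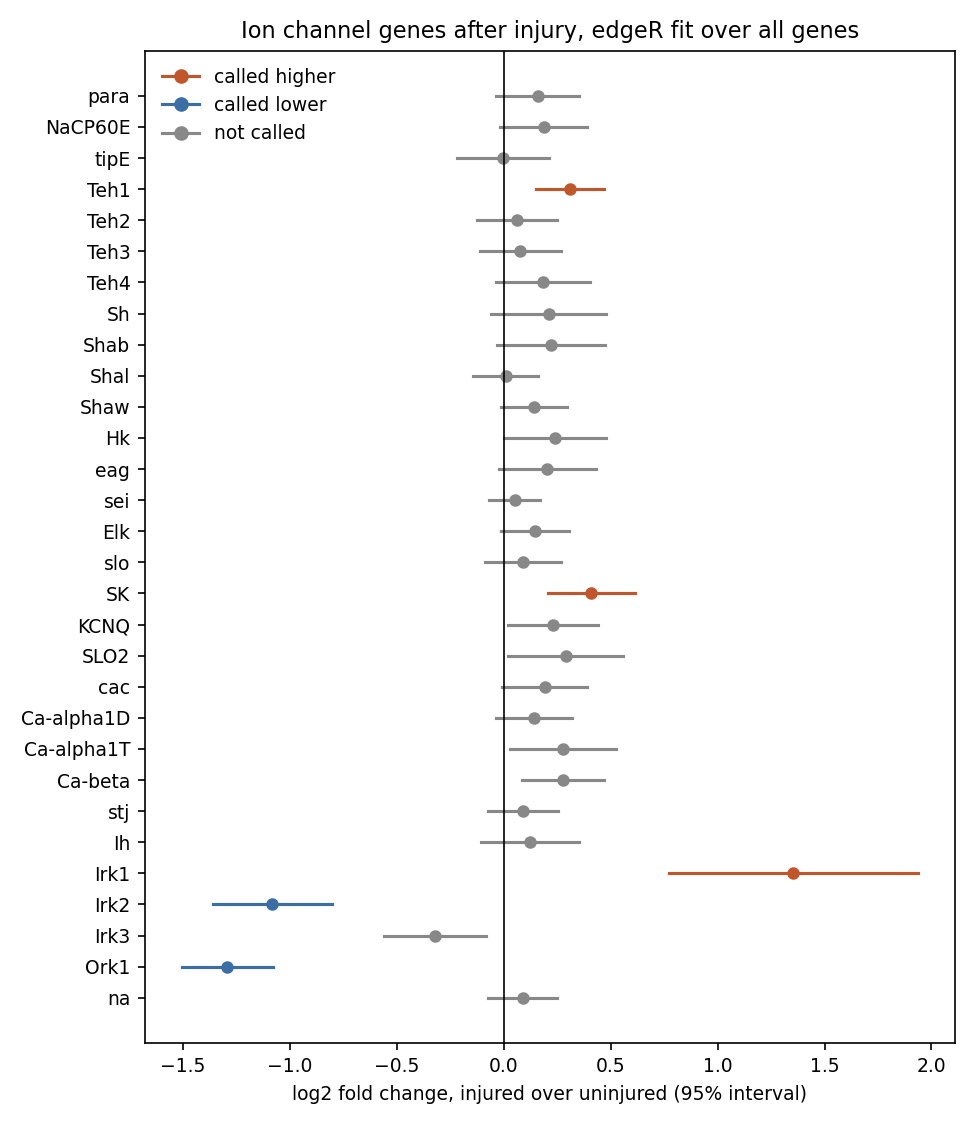
Log2 fold change of the 30 tested channel genes, injured over uninjured, with 95% intervals from edgeR, in the order sodium, potassium, calcium, HCN, inward rectifier and leak channels. Irk1 stands at 1.35, Irk2 at -1.08 and Ork1 at -1.29, and the not called members lie between -0.32 and 0.29.

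Uninjured cords held every channel family, at mean levels per length of 5.26 to 98.2 TPM over the tested members. Only sand, at 0.46 TPM and with few reads, lay lower. Irk2 had the highest mean level, 98.2 ± 13.4 TPM (SD, n = 5), ahead of NaCP60E at 78.0 ± 3.50 and Teh3 at 64.0 ± 4.40 TPM, and the ranges of Irk2 and NaCP60E overlapped. The lowest tested members were Teh4 at 5.26 ± 0.45 TPM and KCNQ at 5.41 ± 0.70 TPM. Of the 30 pairs of neighbours in this order, 23 overlapped in their ranges and 7 did not, so the order of most neighbours is not settled by the spread. Stj, cac, para, slo, tipE, Shab and na formed a run from 52.0 to 43.0 TPM in which each overlapped the next. In injured cords Irk2 stood eighth, at 45.0 ± 7.19 TPM, and NaCP60E first, at 85.6 ± 8.44 TPM. Irk1 moved from place 28 to place 22 of 31 and Ork1 from place 26 to place 30.

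**Figure D2:**
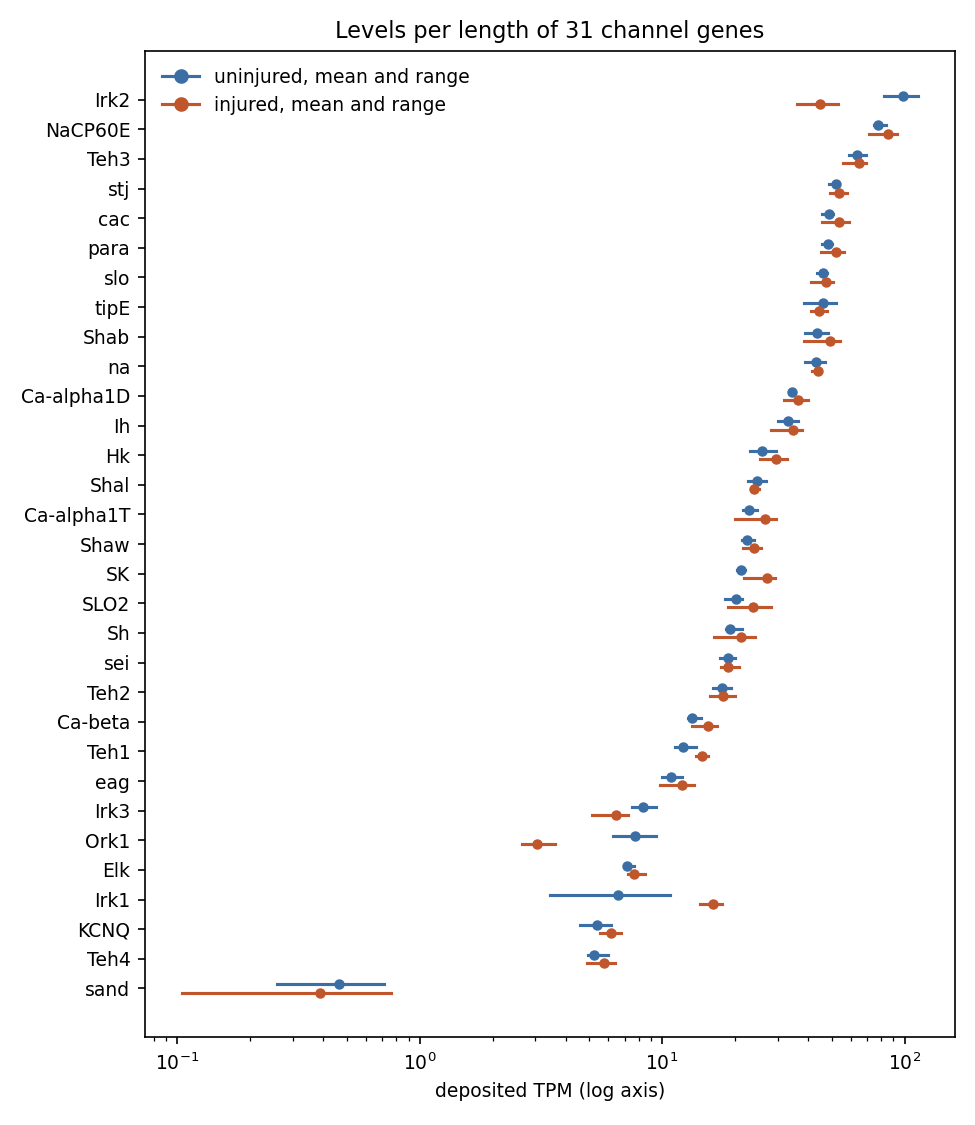
Deposited TPM (log axis) of the 31 channel genes, ordered by the uninjured mean. Points are means and lines the range over 5 libraries. For Irk1, Irk2 and Ork1 the injured and uninjured ranges are apart, with Irk2 at 98.2 and 45.0 TPM. In TPM the ranges are also apart for Irk3 and, narrowly, for Teh1, which overlap in CPM.

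Inwardly rectifying potassium channels pass potassium more easily into the cell than out of it, and the fly has 3 genes of this family, Irk1, Irk2 and Irk3. They did not move together. Irk2 (FBgn0039081, chromosome arm 3R) was at 357, 286, 342, 265 and 392 CPM in uninjured libraries 1 to 5 and at 163, 126, 140, 156 and 192 CPM in injured libraries 1 to 5. Every injured library lay below every uninjured one. Irk2 fell by 1.08 on the log2 scale (SE 0.13, adjusted p = 5.17e-05 in edgeR's test), a 2.12-fold lower level.

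Irk1 (FBgn0039061, chromosome arm 3R) was at 20.1, 34.3, 33.7, 49.5 and 17.0 CPM in uninjured libraries 1 to 5 and at 78.3, 78.8, 85.7, 80.4 and 73.2 CPM in injured libraries 1 to 5. The uninjured libraries were widely spread and the injured ones close together, all above the highest uninjured value. Irk1 rose by 1.35 (SE 0.26, adjusted p = 0.00473 in edgeR's test), from 30.9 ± 13.0 to 79.3 ± 4.47 CPM (SD, n = 5). The call sat near the threshold: with 1 library left out, the adjusted p ran from 0.00024 to 0.0135, and it was above 0.01 when any injured library, or uninjured library 2 or 3, was the one left out, while the log2 fold change stayed between 1.21 and 1.59. No source states that the counting used strand, and Irk1 shares exon sequence with cnc, a stress response transcription factor gene on the opposite strand in a later annotation, whose level was 256 ± 15.4 and 282 ± 13.7 CPM (log2 fold change 0.14, SE 0.06, adjusted p = 0.118 in edgeR's test). Reads of the overlap cannot be told apart. That annotation also has exons of CG46310 over Irk1 on the same strand, a gene with no matched row. A further row of the table now merged into Irk1 had 12 to 24 counts in uninjured and 37 to 63 counts in injured libraries, ranges that did not overlap, and was under the filter.

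Irk3 (FBgn0032706, chromosome arm 2L) was at 25.3, 20.5, 24.9, 19.5 and 22.4 CPM in uninjured and 16.8, 17.3, 19.9, 14.9 and 21.0 CPM in injured libraries 1 to 5. The groups overlapped in CPM, and Irk3 was not called (log2 fold change -0.32, SE 0.11, adjusted p = 0.0483 in edgeR's test). In deposited TPM its ranges were apart, at 7.51 to 9.41 in uninjured and 5.13 to 7.21 in injured libraries. Summed per length, the 3 genes stood at 101 to 125 TPM in uninjured and 58.1 to 75.3 TPM in injured libraries. Irk2 made up 81.8 to 90.8% of this sum in uninjured libraries and 62.1 to 71.3% in injured ones, and Irk1 2.76 to 10.7% and 19.1 to 27.3%. These shares are a description, chosen after the values were seen, with no test.

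**Figure D3:**
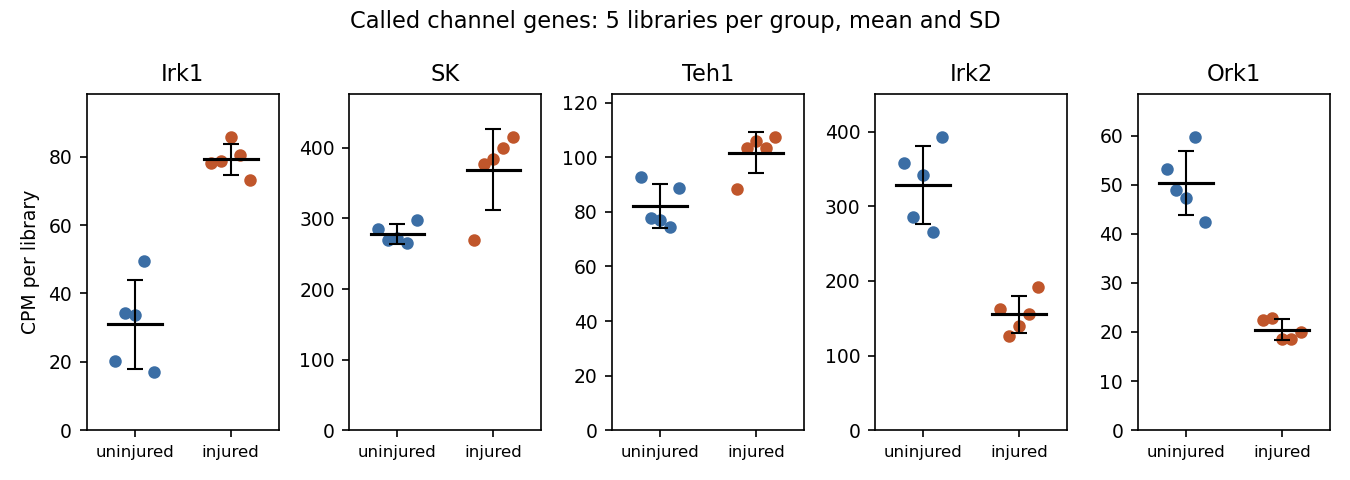
CPM of the 5 called channel genes in each of the 5 uninjured and 5 injured libraries, with the mean (bar) and SD (whisker), axes from 0. Irk1, Irk2 and Ork1 show no overlap between groups, while for SK and Teh1 injured library 1 (269 and 88.5 CPM) lies within the uninjured range.

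Irk2 was also set beside the summed level of the 10 glia markers, a comparison added after the values were seen. From the lowest to the highest, the injured libraries ranked 2, 3, 4, 1, 5 in both Irk2 and the glia sum, and 1, 2, 3, 4, 5 in the neuron sum. The uninjured libraries ranked 4, 2, 3, 1, 5 in Irk2, in the neuron sum and in para, tipE, Shal, Hk, SK and cac, and 2, 4, 3, 1, 5 in the glia sum, so in that group the order is not particular to Irk2 or to glia. Per 1000 CPM of glia markers, Irk2 was at 38.5 to 43.8 CPM in uninjured and 22.9 to 25.9 CPM in injured libraries. That is 41.7 ± 2.19 and 24.3 ± 1.08 (SD, n = 5), a 1.71-fold lower level with no overlap. Per 1000 CPM of neuron markers, Irk2 was at 11.4 to 13.0 CPM in uninjured and 4.99 to 6.86 CPM in injured libraries, a 2.11-fold lower level, also with no overlap. Among the glia markers themselves, repo, the transcription factor that defines fly glia, was at -0.48 (SE 0.06, adjusted p = 4.29e-05) and wrapper, a glial surface protein, at -0.91 (SE 0.11, adjusted p = 1.96e-05), and moody, a receptor of the blood-brain barrier glia, at 0.65 (SE 0.08, adjusted p = 2.79e-05), all log2 fold changes in edgeR's test.

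Irk1 was set beside the glia sum as well. In uninjured libraries Irk1 was lowest in libraries 5 and 1, where the glia and neuron sums were both highest. Its order there, 5, 1, 3, 2, 4, was the reverse of that of the neuron sum, so it is not particular to glia. Per 1000 CPM of glia markers Irk1 ran from 1.76 to 7.18 CPM against 8.75 to 15.1 CPM after injury. Per 1000 CPM of neuron markers it ran from 0.548 to 2.14 CPM against 2.44 to 3.30 CPM, also without overlap. The muscle sum was also lowest in uninjured libraries 5 and 1, at 2575 and 2657 CPM, where Irk1 was at 17.0 and 20.1 CPM. In the injured libraries the muscle sum spanned 1261 to 9667 CPM and Irk1 spanned 73.2 to 85.7 CPM. Per 1000 CPM of muscle markers the Irk1 ranges overlapped, at 6.60 to 14.2 and 8.32 to 68.0 CPM. The part of muscle RNA in the Irk1 difference was not tested.

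Leak potassium channels of the tandem-pore family stay open at rest and hold the membrane near the potassium potential. Ork1 (FBgn0017561, chromosome X) was at 53.2, 48.9, 47.2, 59.6 and 42.4 CPM in uninjured libraries 1 to 5 and at 22.5, 22.8, 18.6, 18.6 and 20.0 CPM in injured libraries 1 to 5. All 5 injured values lay below the lowest uninjured one. Ork1 fell by 1.29 on the log2 scale (SE 0.10, adjusted p = 9.70e-08 in edgeR's test), a 2.45-fold lower level and the lowest adjusted p among the members. It remained called under each of the 20 alternative settings in which it could be tested, at -1.34 to -1.10. Per 1000 CPM of glia markers it stood at 4.39 to 8.65 and 2.39 to 4.33 CPM, and per 1000 CPM of neuron markers at 1.37 to 2.57 and 0.660 to 0.950 CPM, again without overlap. Per 1000 CPM of muscle markers the groups overlapped for Ork1, at 11.5 to 20.0 and 1.93 to 14.7 CPM, and for Irk2, at 67.0 to 152 and 16.1 to 111 CPM.

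The sleep-related leak channel gene sand, also called sandman, had 5 to 13 counts in uninjured and 2 to 12 counts in injured libraries. Its 0.46 ± 0.19 and 0.39 ± 0.28 TPM (SD, n = 5) were too few reads for a comparison. The gene na codes for the NALCN-type sodium leak channel that depolarizes neurons in a daily rhythm. It was at 438 to 547 and 462 to 570 CPM and was not called (log2 fold change 0.09, SE 0.08).

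Calcium- and sodium-activated potassium channels follow the ion load that activity leaves behind. SK (FBgn0029761, chromosome X), the small-conductance channel opened by calcium through calmodulin, was at 285, 269, 272, 265 and 298 CPM in uninjured and at 269, 378, 384, 400 and 415 CPM in injured libraries 1 to 5. Injured libraries 2 to 5 were above all uninjured ones and injured library 1 was not. SK rose by 0.41 (SE 0.10, adjusted p = 0.00581 in edgeR's test), or 1.33-fold, and with 1 library left out its adjusted p ran from 6.79e-06, without injured library 1, to 0.0173. It was above 0.01 without uninjured library 2, 3 or 4, or without injured library 2, 3, 4 or 5. The large-conductance channel gene slo was at 577 to 628 and 512 to 721 CPM (log2 fold change 0.09, SE 0.08). SLO2, a sodium-activated channel gene, was at 193 to 236 and 191 to 325 CPM (0.29, SE 0.12, adjusted p = 0.111 in edgeR's test). Neither was called.

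The sodium channel para carries the action potential, and NaCP60E codes for a second sodium-channel-like protein. Para was at 1117 ± 68.2 and 1247 ± 168 CPM and NaCP60E at 1497 ± 80.8 and 1704 ± 245 CPM (SD, n = 5), and neither was called (adjusted p = 0.225 and 0.173 in edgeR's test). NaCP60E overlaps on the opposite strand with pain, a TRP channel gene that rose by 1.86 (SE 0.09, adjusted p = 8.33e-10 in edgeR's test), and reads of the overlap cannot be told apart.

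TipE, an accessory membrane subunit, raises the current of para, and the Teh genes code for proteins of the same family. Teh1 (FBgn0037766, chromosome arm 3R) was at 92.6, 77.6, 77.0, 74.3 and 88.6 CPM in uninjured and at 88.5, 104, 106, 103 and 107 CPM in injured libraries 1 to 5. The groups overlapped in CPM through injured library 1 and uninjured libraries 1 and 5. In deposited TPM they were narrowly apart, at 11.26 to 13.81 in uninjured and 13.85 to 15.41 in injured libraries. Teh1 rose by 0.31 (SE 0.07, adjusted p = 0.00607 in edgeR's test), or 1.24-fold. With 1 library left out the adjusted p ran from 0.00106 to 0.0202, and it was above 0.01 without uninjured library 2, 3 or 4, or without injured library 2, 3, 4 or 5. The other TipE family genes were not called: the log2 fold changes were -0.004 for tipE, 0.06 for Teh2, 0.08 for Teh3 and 0.18 for Teh4. Teh2 and Teh3 share exon sequence on the same strand, so their counts are uncertain. Over para, each TipE family gene had ratios of TPM that overlapped between groups, for Teh1 0.234 to 0.276 and 0.253 to 0.305. Per 1000 CPM of neuron markers, Teh1 was at 2.85 to 3.37 CPM in uninjured and 3.57 to 4.11 CPM in injured libraries, without overlap. For SK the same ranges overlapped, at 9.62 to 11.40 and 11.36 to 14.98 CPM.

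Voltage-gated potassium channels end the action potential. The alpha subunit genes Sh, Shab, Shal and Shaw were at 345 ± 31.3, 493 ± 54.4, 150 ± 14.4 and 151 ± 5.90 CPM in uninjured libraries, and their log2 fold changes were 0.21, 0.22, 0.01 and 0.14 (SE 0.07 to 0.12). Hk, the beta subunit of Shaker channels, was at 0.24 (SE 0.11), and its ratio to Sh by TPM overlapped at 1.24 to 1.52 and 1.33 to 1.55. The EAG family genes eag, sei and Elk were at 0.20, 0.05 and 0.15, and KCNQ, the M-type channel gene, at 0.23 (SE 0.10). None of these 9 genes was called, with adjusted p of 0.109 to 0.947 in edgeR's test. Shab and Hk each have a second row in the table, at 0.40 (adjusted p = 0.151) and 0.14 (adjusted p = 0.348), not called either.

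Calcium channels link spikes to transmitter release. Cac, the presynaptic channel gene, was at 791 ± 51.1 and 904 ± 128 CPM, the L-type gene Ca-alpha1D at 481 ± 16.3 and 530 ± 69.3 CPM and the T-type gene Ca-alpha1T at 440 ± 26.2 and 533 ± 99.1 CPM (SD, n = 5), with log2 fold changes of 0.19, 0.14 and 0.28. Ca-beta, the cytoplasmic subunit, was at 114 ± 6.92 and 138 ± 20.1 CPM and was nearest to a call (0.28, SE 0.09, adjusted p = 0.0374 in edgeR's test). Stj, the alpha2delta subunit that brings cac to synapses, was at 0.09 (SE 0.08), and Ih, the HCN channel gene opened by hyperpolarization, at 0.12 (SE 0.11). Ratios of TPM to cac overlapped for Ca-beta, at 0.261 to 0.287 and 0.269 to 0.312, and for stj, at 1.05 to 1.09 and 0.929 to 1.08.

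Among the 25 members not called, the 95% intervals reached no lower than 0.678-fold and no higher than 1.47-fold. Most of these small differences lay above 0, in 23 of the 25. Over all 30 tested members, called ones included, 26 (86.7%) had a positive log2 fold change, with a median of 0.15, beside 48.0% of all tested genes and a median of -0.01. The members are long genes, with a median longest transcript of 5.79 kb beside 1.95 kb over all tested genes. Over the 860 tested genes at least that long, 76.4% were positive, with a median of 0.10, a comparison chosen after the values were seen. Reads in introns made up 8.30 to 9.97% of the reads in injured and 8.39 to 9.16% in uninjured libraries, and reads in exons 37.2 to 43.1% and 41.3 to 43.4%. The part of length and of these read classes in the small differences was not tested. A later annotation also places exons of an opposite-strand gene over Hk, sei, KCNQ, Ca-alpha1D, Irk3 and sand. It places those of a same-strand entry over tipE, Irk1 and NaCP60E, and for Irk1 and NaCP60E that entry had no matched row.

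Injured library 1 stood apart in these genes. It was the lowest injured library for 25 of 31 members, and the median tested member stood there at -0.18 on the log2 scale relative to its uninjured mean, beside 0.11 to 0.30 in injured libraries 2 to 5. Uninjured library 4 was the lowest of its group for 22 members, with a median of -0.13. Both were also the lowest of their group in the neuron marker sum, at 23712 and 23196 CPM, and per 1000 CPM of neuron markers the summed members overlapped between groups, at 335 to 383 and 357 to 438 CPM. In the alignment sheet, which names libraries by label, injured replicate 1 had the lowest intron share of the 10, 8.30%, and the other 4 injured replicates, at 9.41 to 9.97%, were above all uninjured ones. Its exon share was 43.1%, that of injured replicate 4 was 42.7%, and injured replicates 3, 5 and 6, at 37.2, 38.2 and 38.1%, were below all uninjured ones. The sheet's names were not tied to the column numbers.

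Without injured library 1, 10 of 30 members (33.3%) were called higher in edgeR's test, where 9.82% of all tested genes were. These were Teh1, SK, NaCP60E, Sh, Shab, eag, SLO2, cac, Ca-alpha1T and Ca-beta, with log2 fold changes of 0.27 to 0.50, and Irk1 was at 1.36 (adjusted p = 0.0106). In 13 members all 4 remaining injured libraries were above all uninjured ones, or 43.3%, where 13.3% of all tested genes were. With the library kept, 8 of these 10 genes were not called, so these calls rest on its removal. Injured library 1 was singled out because these same members were low in it, so its removal favours higher calls among them. The shares of members without it are therefore a description only. Irk2 and Ork1 were called with each library left out in turn.

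**Figure D4:**
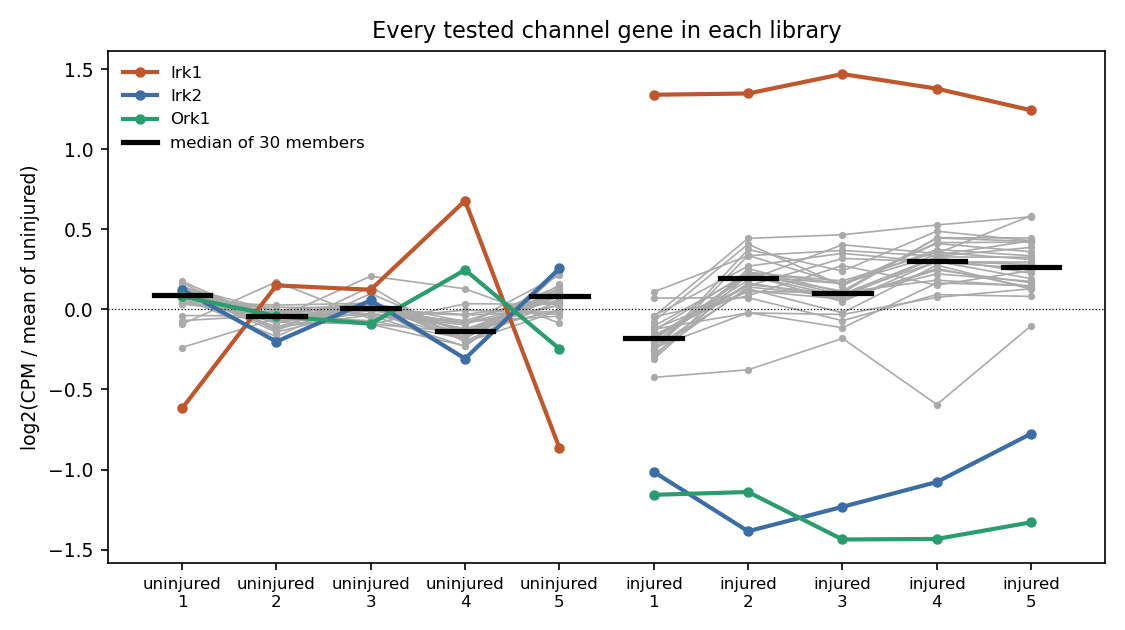
Log2 ratio of each tested channel gene's CPM to its mean over uninjured libraries, in each of the 10 libraries (lines join the values of 1 gene within a group, and black bars are the median of 30 members). Injured library 1 has a median of -0.18 and injured libraries 2 to 5 of 0.11 to 0.30, while Irk1, Irk2 and Ork1 keep their distance in all 5 injured libraries.

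Of 16 channel partners and regulators, 15 were tested, and 1 was called higher and 14 were not called, with a median log2 fold change of 0.07. Over all tested genes, 7.30% were called higher and 6.62% lower, with a median of -0.01. Slob, which binds the slo channel, was at 122, 104, 125, 118 and 134 CPM in uninjured and 138, 145, 179, 164 and 199 CPM in injured libraries 1 to 5, with no overlap. It rose by 0.45 (SE 0.10, adjusted p = 0.00357 in edgeR's test). Cam, which codes for calmodulin, and unc79, a partner of na, were at -0.07 and 0.06. Among 7 tested genes of 11 other potassium channel genes listed, CG1688 was called higher, from 42.1 to 46.8 CPM in uninjured to 50.9 to 56.7 CPM in injured libraries (0.26, SE 0.07, adjusted p = 0.00861 in edgeR's test), and 6 were not called, with a list median of 0.08. CG42340 and Shawl, the highest of those not called, were at 0.08 and 0.04.

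Ion pumps, exchangers and chloride transporters use or rebuild the ion gradients. Of 14 listed, 13 were tested, 2 were called lower and 11 were not called, with a median of -0.07. Over all tested genes, 6.62% were called lower and 7.30% higher, with a median of -0.01. The sodium-potassium-chloride cotransporter gene Ncc69 was at 286, 231, 280, 223 and 274 CPM in uninjured and 191, 164, 185, 187 and 217 CPM in injured libraries 1 to 5, and fell by 0.45 (SE 0.09, adjusted p = 9.96e-04 by edgeR). The chloride channel gene ClC-a was at 132 to 154 CPM in uninjured and 108 to 119 CPM in injured libraries, and fell by 0.38 (SE 0.06, adjusted p = 1.49e-04 by edgeR). The groups did not overlap for either gene. The sodium pump genes Atpalpha and nrv2, the highest of those not called, were at -0.12 (SE 0.11) and -0.36 (SE 0.16), and nrv2 is also in the glia marker list.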

How the data were processed

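RNA-seq of 5 uninjured and 5 injured pools of w1118 ventral nerve cords was used. Libraries were made after rRNA depletion without poly(A) selection and sequenced as single reads in 1 lane. The authors aligned reads to fly genome release 5.57 with BWA in GeneSifter (versions not given in the sources used here) and deposited an estimated count for each gene. These were at most 0.00063 away from a whole number and were rounded here. No count was below 1. The deposited TPM values are the counts divided by the longest transcript and by mapped reads, which is the formula of RPKM. The submitters' processing notes name limma. Alignment metrics gave exon and intron reads per library.

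Genes whose mean TPM passed 2 in either group (9365 of 14352, with 1 row left out for want of numbers) were tested with edgeR 4.0.16 (R 4.3.3, glmQLFit with robust estimation, TMM factors on the totals of tested genes, glmQLFTest), with Benjamini-Hochberg adjustment over all of them. limma 3.58.1 and DESeq2 1.42.0 gave alternatives. SE is the log2 fold change over the root of F, and intervals are 95%. The test was tested on simulated counts. Ratios of TPM, marker sums and levels are descriptions with no test.

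All members are named, called ones with every value. Of other lists, up to 4 called genes with the largest change and up to 2 not called with the highest uninjured CPM are named. Members and lists were chosen with earlier results of these data known. Shab, Hk, SLO2 and Irk1 each have more than 1 row in the table, and the row with the most reads was used. Of the other lists, CG42594 and zyd were not matched and CG9194 is the same gene as galene. Gene names, chromosome arms and overlaps come from later annotations (BDGP6), so no coordinates are given. The paper's methods give 1% agarose and an age of 3 to 5 days. They also give 60 to 80 flies per replicate and a smaller number of cords taken for RNA. The authors' own fold changes, p-values and library correlations were not used. 0 columns of per-sample values of other samples were left unused. The counts per library set the precision, and differences are limited by the spread between 5 pools per group.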

Additional observations from a re-analysis of the deposited data

Results flagged for a closer look

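In 8 of 62 groups of 5 libraries (31 members in 2 groups), 1 library lay far from the other 4, by the gap to its neighbour as a share of the group's range. Chance alone gives about 1 in 20 independent groups. The members share the same libraries, so these groups are not independent and the 8 cannot be judged against that rate. Injured library 1 was the low one in 4 of them: Teh1 at 88.5 CPM beside 103 to 107, SK at 269 beside 378 to 415, KCNQ at 25.5 beside 31.2 to 33.4, and na at 462 beside 541 to 570 CPM. The sei level was low in injured library 3, at 84.5 CPM beside 93.2 to 94.6. Among uninjured libraries, Sh was high in library 5 at 400.3 CPM beside 323 to 337, Shaw was high in library 1 at 162 CPM beside 147 to 150, and Ca-alpha1D was low in library 4 at 452 CPM beside 484 to 493. Without injured library 1 the SK and Teh1 differences were 0.50 and 0.36 on the log2 scale.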

How the results depend on the processing

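The 2 lower calls and 3 higher calls were recomputed under 20 planned settings and 1 chosen after seeing the data (rows of 1 gene summed). Of 625 recomputed member values, 570 kept their direction and side of the threshold, 16 changed sign in members called in neither (9 for tipE and 7 for Shal), 29 of called members lost the call, 10 of others gained it, and none that was called reversed. The higher count was 1 with limma-voom and 1 with limma on log2(TPM + 0.5) or log2(TPM + 1), where SK and Teh1 missed the threshold, and 0 to 10 with 1 library left out. In the 6 edgeR fits with a count of 0 (those that left out injured library 2, 3, 4 or 5 or uninjured library 2 or 3), 4 to 7 members were higher at an unadjusted p under 0.05. The lower count was 1 with a mean TPM above 10, since Ork1 is then not tested, and 2 with any library left out. At an adjusted p under 0.05, 4 were higher, Ca-beta added, and 3 lower, Irk3 added. Of all 9365 tested genes, 1079 were higher and 1103 lower at that threshold. With 1 library left out, 551 to 920 of all tested genes were higher and 452 to 739 lower. The higher count over all tested genes was 640 with limma-voom, and 494 and 493 with limma on log2(TPM + 0.5) and log2(TPM + 1). Over all genes, edgeR called 1304 and DESeq2 1586, and upper-quartile factors split the calls into 607 higher and 749 lower, beside 684 and 620. Teh1 then missed the threshold (adjusted p = 0.0103). Slob and CG1688 lost their calls under several settings, with adjusted p up to 0.0183 and 0.0505. No paired analysis was possible because uninjured replicates carry letters and injured ones numbers. Low counts limit sand.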
